A study of Homo sapiens with 16 samples.

Results

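NOMO-1, a human line of acute monocytic leukaemia, was grown for 72 h with 500 nM CS2 (n = 3 libraries) or with the solvent DMSO (n = 4), and the 2 groups were compared across genes. These 7 libraries were taken by their sample names from 16 in the series, and 14951 of 26830 entries of the deposited table were tested, those that reached 1 TPM, an abundance unit with a fixed total per library, in 3 or more of the 16 libraries. Neither group is labelled with a genetic change. The series also holds 100 nM CS1 (n = 3, same DMSO libraries) and NOMO-1 cells selected with puromycin after lentiviral delivery of a control hairpin (shNS, n = 3) or of one that targets FTO (shFTO, n = 3). The series presents CS1 and CS2 as inhibitors of FTO, an enzyme that removes the m6A mark from RNA, and describes its replicates as biological. The labels give only a code name. General knowledge of the publication, not checked against it, identifies CS2 with brequinar, a drug that blocks DHODH in the synthesis of pyrimidines.

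The response is described for 3 programmes. Myeloid differentiation replaces the genes of the dividing progenitor with those of granules, receptors and cytokines used by monocytes and neutrophils. Entry into S phase is driven by E2F transcription factors, which are held back by the retinoblastoma proteins and released by cyclin-dependent kinases; their targets load the helicase on origins, build the fork and supply deoxynucleotides. Translation capacity rests on ribosomal proteins and elongation factors, whose messenger RNAs begin with a C and a run of pyrimidines (the 5′ TOP motif) through which mTORC1 and LARP1 control them.

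FTO itself stood at 33.3, 33.1, 29.6 and 30.7 TPM with DMSO and at 35.3, 34.0 and 33.3 TPM with CS2. The groups overlapped, and the difference did not pass (log2 fold change 0.11, SE 0.056, adjusted p = 0.0936); it turned negative under both scalings described next. Folds are differences of log2(TPM + 1), so those of genes with few TPM are too small, and adjusted p values are from limma with Benjamini-Hochberg adjustment over all tested genes, at a threshold of 0.05.

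Of all tested genes, 7405 were higher with CS2 (49.5%) and 3674 lower (24.6%). With a fold change of at least 2 in addition, 1531 were higher (10.2%) and 700 lower (4.68%). TPM add up to the same total in every library, and the median gene lay 0.20 above its DMSO level. After median-ratio scaling that median was 0.02, with 5608 genes higher and 5164 lower, and after quantile normalization 5395 were higher and 5346 lower. Relative medians of lists below have the main all-gene median subtracted. The direction of the response differed with the starting level. Of the 122 genes above 1000 TPM in DMSO, 97 fell and 16 rose, and without ribosomal protein genes 34 of 59 fell and 16 rose. Of the 1281 genes with a mean under 1 TPM in DMSO, 49.6% rose and 5.46% fell. Such genes can pass the filter through other groups alone and have little room to fall. Some members of the differentiation lists below are of this kind, such as CSF1R, LY96 and CCL3, so the counts of those lists lean to rises. Across genes, libraries of 1 group correlated with Pearson's r of 0.9893 to 0.9925. Ribosomal RNA entries took between 1.77% and 4.58% of TPM with DMSO and between 0.83% and 2.96% with CS2 (exact permutation p = 0.171), and mitochondrial-like entries took 8.15% ± 0.165 with DMSO and 7.88% ± 0.151 with CS2 (exact permutation p = 0.0286). With both kinds of entry left out, 7138 genes were higher and 3833 lower. Read depth is not known from TPM.

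**Figure D1:**
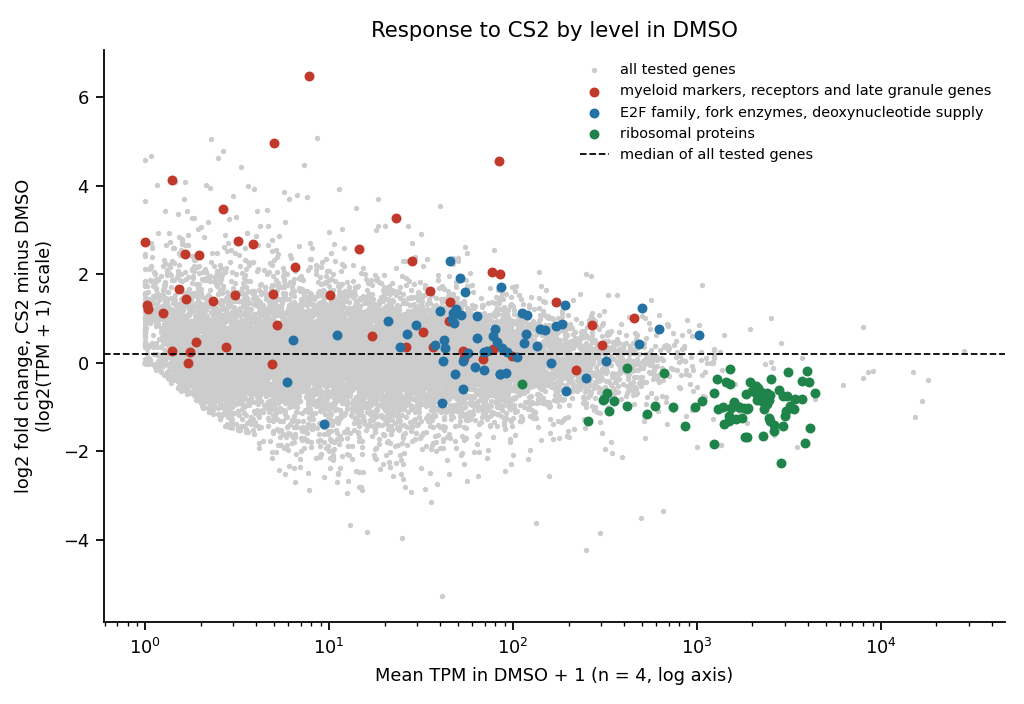
Log2 fold change of each tested gene (vertical axis, CS2 minus DMSO) against its mean TPM + 1 in DMSO (horizontal log axis); grey dots are all 14951 genes, coloured dots are members of 3 groups of lists, and the dashed line is the median of all tested genes (0.20). Myeloid genes lie mostly above the line, and ribosomal protein genes lie at the right and below it.

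The differentiation genes came first. CS2 raised 17 of 19 tested monocyte and macrophage markers and lowered 2, with a relative median of 1.03. After either scaling 12 were higher and 3 lower. A further 5 markers, among them CD14, CD163 and MRC1, were too low to be tested, so the list is a sample of those the cells made. ITGAM, the alpha chain (CD11b) of a complement receptor, was at 2.17, 2.17, 2.25 and 2.2 TPM with DMSO and at 21.8, 22.8 and 17.4 TPM with CS2. CSF1R, the receptor for macrophage colony-stimulating factor, went from between 0.55 and 0.71 TPM to between 7.63 and 8.36 TPM (log2 fold change 2.47, SE 0.110, adjusted p = 2.62e-11). The lectin CLEC7A rose from 5.50 ± 0.381 to 28.1 ± 1.21 TPM and lysozyme, LYZ, from 75.3 ± 5.66 to 318 ± 14.4 TPM (SD). No CS2 library overlapped a DMSO library for any of these genes. The 2 that fell were the inhibitory receptor SIRPA (219 to 197 TPM) and the lysosomal protease CTSD, which went from 2442 ± 151 to 1464 ± 96.9 TPM; the fall of CTSD did not pass after quantile normalization (-0.04, adjusted p = 0.485). In bulk RNA, a change in the share of cells of one kind and a change of RNA per cell cannot be told apart.

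Granule genes were described in 2 lists, by the stage at which they are made. Of 9 tested late neutrophil granule and calprotectin genes, 8 rose and 1 did not pass (relative median 1.34), while 11 others were too low to be tested. After median-ratio scaling 6 of the 9 were higher, and after quantile normalization 7. Of 15 tested promyelocyte granule genes, which earlier precursors make, 6 rose, 5 fell and 4 did not pass (relative median 0.04). PRTN3, proteinase 3, was at 126, 135, 150 and 151 TPM with DMSO and at 40.4, 40.4 and 41.6 TPM with CS2, so each CS2 library lay below each DMSO library (log2 fold change -1.75, SE 0.120, adjusted p = 3.55e-09). ELANE, neutrophil elastase, fell from 515 ± 46.1 to 224 ± 25.4 TPM, and MS4A3, a membrane protein of granulocyte precursors, from 9.62 ± 1.24 to 2.05 ± 0.263 TPM. PRG2 and CST7 fell as well, with log2 fold changes of -1.45 and -0.27. The eosinophil ribonuclease RNASE2 rose from 249 ± 9.48 to 1012 ± 60.2 TPM, and BPI, a protein that kills Gram-negative bacteria, from 2.13 ± 0.179 to 29.8 ± 0.371 TPM. CTSG, cathepsin G, stood at 1220 ± 73.0 and 1245 ± 46.7 TPM and AZU1 at 223 ± 15.9 and 228 ± 12.8 TPM. Neither passed, but CTSG passed in opposite directions after median-ratio scaling (-0.18, adjusted p = 0.0446) and quantile normalization (0.54, adjusted p = 1.37e-06).

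Most tested genes that let a phagocyte sense and kill rose, in lists chosen with earlier results of these data known. Of 22 tested pattern recognition and chemoattractant receptors, 21 rose and 1 did not pass (relative median 1.15), and 7 of 7 tested Fc receptors rose (relative median 0.78). In the same order, 19 and 6 were higher after median-ratio scaling and 18 and 6 after quantile normalization. LY96, the partner of the endotoxin receptor TLR4, was at 0.16, 0.58, 0.43 and 0.41 TPM with DMSO and at 26.2, 24.8 and 19.2 TPM with CS2. A gene this low with DMSO had little room to fall. C5AR1, the receptor for the complement peptide C5a, was at 1.28, 1.71, 1.73 and 1.79 TPM with DMSO and at 26.8, 25.6 and 32.5 TPM with CS2. Every CS2 library was far above every DMSO library in both genes. TREM1, an amplifier of innate signals, rose from 22.1 ± 1.69 to 221 ± 4.55 TPM, and FCER1G, the signalling chain of Fc receptors, from 136 ± 1.51 to 568 ± 20.7 TPM. Among 6 tested subunits of the phagocyte oxidase, 5 rose, led by NCF1 (p47phox), at 16.6, 18.9, 15.9 and 18.4 TPM with DMSO and at 253, 241 and 227 TPM with CS2. CYBB rose from 2.69 to 8.37 TPM, RAC2 from 233 to 436 TPM and CYBA from 277 to 398 TPM. The chaperone of the complex, listed as C17orf62, fell (log2 fold change -0.28). NCF1 has near-identical pseudogenes, so its level is uncertain.

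Of 15 tested inflammatory cytokines and chemokines, 13 rose and 2 did not pass (relative median 1.85), with 12 higher after either scaling. Members under 1 TPM with DMSO, such as CCL3, had little room to fall. IL1RN, the antagonist of interleukin 1, was at 5.40, 6.29, 7.01 and 6.52 TPM with DMSO and at 162, 151 and 166 TPM with CS2. CCL2 rose from 10.7 ± 1.53 to 94.8 ± 16 TPM, CCL3 from 0.70 ± 0.338 to 16.99 ± 1.81 TPM and CCL7 from 0.15 ± 0.125 to 17.8 ± 3.07 TPM; all 3 draw monocytes to tissue. Other genes among the 15 largest rises were the collagenase MMP1 (7.54 ± 0.902 to 292 ± 57.0 TPM), the glycerol channel AQP9 (0.07 ± 0.033 to 26.3 ± 2.22 TPM), the DNA sensor AIM2 (1.498 ± 0.456 to 60.1 ± 5.80 TPM) and the adhesion molecule CEACAM1 (0.46 ± 0.0311 to 23.9 ± 3.75 TPM). GZMA, a protease best known from cytotoxic lymphocytes, was listed at 0 in the 4 DMSO libraries and at 29.2, 28.3 and 14.9 TPM with CS2. Lymphocyte markers summed to between 280 and 296 TPM with DMSO and to between 447 and 465 TPM with CS2. Nearly all of that sum was NKG7 (266 to 433 TPM), and 3 of the 14 markers were at 0 in all 7 libraries. Of 15 erythroid and megakaryocyte markers 8 were at 0 in all 7 libraries, with sums of 13.03 to 15.01 TPM and 20.3 to 21.9 TPM. Of 11 epithelial and fibroblast markers 4 were at 0, with sums of 6.21 to 6.53 TPM and 8.87 to 10.8 TPM. The part of other cell types in the results was not tested.

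Transcription factors of the myeloid line rose in 21 of 25 cases and fell in 3 (relative median 0.99). CEBPE, which drives the late granulocyte programme, was at 30.3, 29.8, 33.4 and 31.5 TPM with DMSO and at 149, 143 and 146 TPM with CS2, each CS2 library above each DMSO library (log2 fold change 2.19, SE 0.0465, adjusted p = 2.6e-14). The stress-responsive factor ATF3 rose from 2.55 ± 0.405 to 26.3 ± 4.72 TPM. The 3 that fell were CEBPA, GFI1 and RXRA. CEBPA, which commits progenitors to the granulocyte and monocyte line, fell from 303 ± 6.27 to 186 ± 3.78 TPM, GFI1 from 291 ± 13.8 to 184 ± 3.25 TPM and the retinoid receptor RXRA from 43.0 ± 1.76 to 12.8 ± 1.95 TPM. IRF8 did not pass as tested (138 and 131 TPM, adjusted p = 0.0636), and passed downwards after median-ratio scaling (-0.28) and quantile normalization (-0.31).

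Genes of progenitors and self-renewal gave a mixed picture, with 8 of 20 higher and 6 lower (relative median -0.10; 5 higher and 9 lower after either scaling). BMI1, a polycomb protein that stem cells need, was at 416, 407, 362 and 373 TPM with DMSO and at 95.4, 90.4 and 79.1 TPM with CS2. That was the largest fall of the list after MYC (297 ± 17.6 to 19.8 ± 2.15 TPM). MYB fell from 238 ± 9.53 to 180 ± 16.2 TPM. HOXA9 (86.4 ± 1.33 and 83.0 ± 7.22 TPM) and its partner MEIS1 (68.2 ± 5.39 and 73.3 ± 2.68 TPM) did not pass, HOXA10 fell by 0.30, and MEF2C rose from 3.51 ± 0.231 to 11.3 ± 1.06 TPM. HOXA9 passed downwards after median-ratio scaling (-0.27) and quantile normalization (-0.28), and MEIS1 passed upwards without DMSO replicate 1 (0.15, adjusted p = 0.0271).

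**Figure D2:**
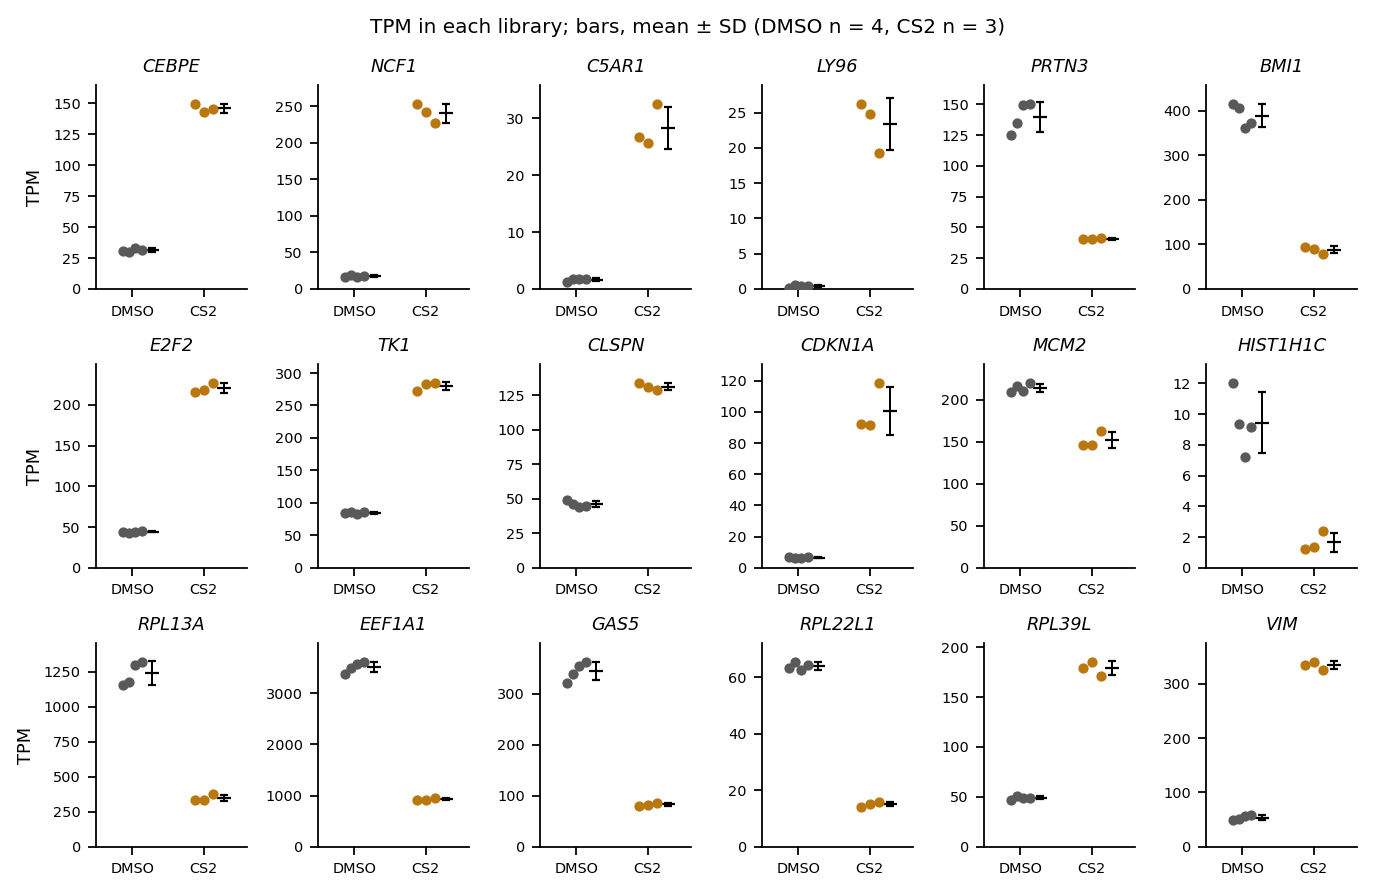
TPM of 18 genes in each library (vertical axes, TPM, each from 0); dots are libraries, 4 with DMSO and 3 with CS2, and bars are the mean ± SD. In every panel the CS2 libraries lie wholly above or wholly below the DMSO libraries, for example CEBPE at 143 TPM or more against 33.4 TPM or less.

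The genes that start S phase were examined next. Of 12 tested E2F and retinoblastoma family genes, 7 rose and 4 fell (relative median 0.18), where 49.5% of all tested genes rose and 24.6% fell. E2F2 was at 44.5, 43.5, 44.2 and 44.9 TPM with DMSO and at 216, 218 and 227 TPM with CS2, a rise in each library beyond the spread of either group (log2 fold change 2.29, SE 0.073, adjusted p = 8.66e-13). E2F1, an activating member, rose from 50.1 ± 4.26 to 192 ± 1.96 TPM. TFDP1, the dimer partner of E2F proteins, rose from 624 ± 11.3 to 1063 ± 17.3 TPM, and E2F8, a repressive member, from 53.6 ± 3.4 to 165 ± 6.88 TPM. The retinoblastoma gene RB1 rose from 111 ± 9.91 to 242 ± 19.6 TPM, while its relative RBL1 fell from 52.2 ± 3.83 to 34.6 ± 3.82 TPM and E2F5 from 8.38 ± 0.605 to 2.63 ± 0.344 TPM. Below are the bases around the annotated starts of 2 such genes (RefSeq, GRCh38.p14, the 40 bases before and the first 20 from the start, in the direction of transcription), shown because E2F proteins bind words of this kind. Capitals mark the words TTTGGCGC, TTTCCCGC, TTTCGCGC or TTTGCCGC on either strand.
E2F1 (chr20:33686366-33686425, minus strand): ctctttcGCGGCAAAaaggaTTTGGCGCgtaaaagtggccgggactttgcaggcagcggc
CDC6 (chr17:40287839-40287898, plus strand): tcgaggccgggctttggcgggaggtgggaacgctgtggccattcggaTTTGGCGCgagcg
Over 300 bases around the start, such a word was found in 3.99% of 27305 promoters and in 6.4% of the 10258 that belong to tested genes. It was found in 5 of 10 of the E2F family, in 9 of 16 origin licensing genes and in 12 of 28 fork genes with an entry. Of 657 tested genes with a word 58.0% were higher with CS2, against 52.3% of 9601 without one.

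Regulators of the G1 phase set when S phase begins. Of 17 tested G1 cyclins, kinases and inhibitors, 12 rose and 4 fell (relative median 0.84). CDKN1A, the inhibitor p21 and a p53 target, was at 6.82, 6.51, 6.04 and 6.85 TPM with DMSO and at 92.3, 91.5 and 119 TPM with CS2 (log2 fold change 3.74, SE 0.131, adjusted p = 2.18e-12). CCNE1, a cyclin that starts S phase, rose from 26.2 ± 1.76 to 97.4 ± 6.47 TPM. The D cyclins parted, with CCND3 rising from 1059 ± 32.2 to 3597 ± 74.3 TPM and CCND2 falling from 34.5 ± 2.28 to 5.27 ± 0.257 TPM. The inhibitors did too, since CDKN2D (p19) rose from 25.1 ± 0.951 to 128 ± 3.09 TPM and CDKN1B (p27) fell from 125 ± 6.79 to 67.8 ± 2.2 TPM. Among 23 tested p53 targets 16 rose and 2 fell (relative median 0.30). GDF15, a stress cytokine, rose from 0.29 ± 0.194 to 7.26 ± 2.48 TPM, and the repair gene XPC fell from 31.1 ± 0.217 to 9.37 ± 0.967 TPM.

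Of 18 origin licensing genes 12 rose and 3 fell (relative median 0.11; 8 and 6 after median-ratio scaling, 9 and 6 after quantile normalization). The 6 subunits of the helicase differed. MCM3 rose from 449 ± 6.88 to 559.5 ± 9.57 TPM, although it did not pass after median-ratio scaling (0.11, adjusted p = 0.21), and MCM4 rose from 349 ± 9.34 to 486 ± 19.1 TPM. MCM2 was at 209, 216, 211 and 220 TPM with DMSO and at 147, 146 and 163 TPM with CS2, all 3 below the lowest DMSO library. MCM5 fell from 166 ± 4.67 to 136 ± 4.32 TPM. MCM6 stood at 578 ± 23.8 and 607 ± 16.1 TPM and MCM7 at 450 ± 9.63 and 428 ± 7.53 TPM, and neither passed; MCM6 had a negative difference after median-ratio scaling (-0.13), and MCM7 passed downwards after median-ratio scaling (-0.28) and quantile normalization (-0.14). CDC6, which loads the helicase, rose from 66.0 ± 1.14 to 183 ± 1.14 TPM, and MCM10, which acts when the helicase is fired, from 26.9 ± 1.29 to 44.9 ± 1.24 TPM.

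Of 32 fork genes 26 rose and 3 fell (relative median 0.38; 20 and 5 after either scaling). PRIM2, a primase subunit, went from between 45.8 and 50.5 TPM to between 103 and 122 TPM. The clamp PCNA rose from 1028 ± 13 to 1586 ± 22.3 TPM and the clamp loader subunit RFC2 from 118 ± 2.39 to 253 ± 1.82 TPM. Polymerase delta showed both directions, with POLD3 rising from 38.8 ± 2.44 to 88.6 ± 0.577 TPM and POLD2 falling from 194 ± 5.77 to 125 ± 6.71 TPM. RPA3, which coats single-stranded DNA, fell from 40.03 ± 1.85 to 20.8 ± 0.968 TPM. Of 23 tested genes of the replication stress checkpoint 17 rose and 2 fell (relative median 0.46; 15 and 5 after median-ratio scaling). CLSPN, which passes the signal from ATR to CHEK1, was at 49.3, 46.6, 44.5 and 45.0 TPM with DMSO and at 134, 131 and 129 TPM with CS2. ATRIP, the partner of ATR, fell from 18.3 ± 1.17 to 10.2 ± 0.482 TPM.

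Nucleotide supply is where the known target of brequinar acts. Of 17 tested genes of deoxynucleotide supply 10 rose and 3 fell (relative median 0.28; 10 and 6 after either scaling). Thymidine kinase TK1, a salvage enzyme of S phase, was at 84.7, 86.4, 83.2 and 86.5 TPM with DMSO and at 273, 283 and 285 TPM with CS2 (log2 fold change 1.71, SE 0.064, adjusted p = 4.07e-12). The ribonucleotide reductase subunit RRM2 rose from 504 ± 20.9 to 1196 ± 22.8 TPM. Of 17 pyrimidine synthesis and salvage genes 9 rose and 5 fell (relative median 0.08), near the shares of all tested genes (49.5% and 24.6%). The counts were 8 and 7 after median-ratio scaling and 7 and 7 after quantile normalization. DHODH was at 18.8, 20.1, 20.8 and 19.9 TPM with DMSO and at 7.67, 8.79 and 9.03 TPM with CS2. CAD, which carries the first steps of the pathway, fell from 75.1 ± 2.1 to 61.4 ± 0.877 TPM and the uridine kinase UCK2 from 87.5 ± 2.27 to 54.9 ± 1.6 TPM. The salvage enzymes UPP1 (8.66 ± 0.744 to 33.1 ± 3.17 TPM) and CDA (20.3 ± 1.97 to 62.4 ± 3.63 TPM) rose. Purine synthesis leaned the other way, with 9 of 15 lower and 3 higher (relative median -0.34), among them PFAS, which fell from 41.0 ± 1.48 to 13.8 ± 0.768 TPM.

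Replication-dependent histone genes, which cells normally express with DNA synthesis, did not follow the fork genes. Of 20 tested, 19 fell and none rose (relative median -1.21); HIST2H4A, at 1.05 and 0.82 TPM, did not pass. HIST1H1C, a linker histone, was at 12.03, 9.35, 7.21 and 9.13 TPM with DMSO and at 1.26, 1.36 and 2.38 TPM with CS2. HIST1H2BH fell from 6.71 ± 1.47 to 0.35 ± 0.125 TPM. Most such messages carry no poly(A) tail, so poly(A) selection sees few of them, and with a floor of 5 TPM only 6 fell because fewer were tested. Of 30 genes of G2 and mitosis 24 rose and 2 fell (relative median 0.27; 16 and 6 after median-ratio scaling, 16 and 7 after quantile normalization). The phosphatase CDC25B rose from 81.9 ± 2.19 to 257 ± 3.77 TPM and the kinase AURKB from 121 ± 3.77 to 291 ± 4.94 TPM, while CDC20, the activator of the anaphase complex, fell from 273 ± 5.01 to 184 ± 4.15 TPM.

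Ribosomal protein messages fell with CS2. All 47 tested large-subunit and all 30 tested small-subunit ribosomal protein genes were lower (relative medians -1.22 and -0.996). Of all tested genes 24.6% were lower. After median-ratio scaling the counts were the same; after quantile normalization 39 of the large subunit fell and 1 rose, and 23 of the small subunit fell and 5 rose. Their messages together took 14.6%, 14.97%, 15.9% and 16.1% of TPM with DMSO and 8.26%, 8.39% and 8.49% with CS2 (exact permutation test, two-sided, p = 0.0286, the smallest 4 against 3 libraries can give). The share of the large subunit was 9.18% ± 0.440 with DMSO and 4.60% ± 0.0574 with CS2, and that of the small subunit 6.21% ± 0.300 and 3.78% ± 0.0576. Many of these genes have processed pseudogenes that can take or give reads.

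The fall was uneven within the ribosome. RPL13A was at 1158, 1177, 1303 and 1323 TPM with DMSO and at 338, 332 and 376 TPM with CS2 (log2 fold change -1.83, SE 0.064, adjusted p = 2.08e-12). RPL41 fell from 3845 ± 165 to 1097 ± 1.58 TPM and RPS14 from 1482 ± 81.5 to 599.6 ± 27.1 TPM. RPS6, whose protein is a substrate of S6 kinase, fell from 3357 ± 154 to 1640 ± 12.9 TPM. Among the smallest falls, picked out after their values were seen, were RPS19 (1509 to 1361 TPM, log2 fold change -0.15), RPLP1 (3938 to 3443 TPM, -0.19), RPS4X (3105 to 2701 TPM, -0.20) and FAU (657 to 557 TPM, -0.24). The fall of RPS19 did not pass without CS2 replicate 1 (-0.11, adjusted p = 0.0861). After quantile normalization RPS19 (0.43) and RPS4X (0.20) passed upwards and RPLP1 did not pass (0.00).

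Promoter sequence was examined for the start of the 5′ TOP motif. Shown are 40 bases before and 20 from the annotated start of 3 genes that fell more than 1 log2 unit, of 2 among those that fell least and of 2 others on the translation side, an elongation factor and a host of small nucleolar RNAs (RefSeq, GRCh38.p14). Capitals mark a C at the start followed by at least 4 C or T letters, with all pyrimidines that continue the run.
RPL13A (chr19:49487568-49487627, plus strand): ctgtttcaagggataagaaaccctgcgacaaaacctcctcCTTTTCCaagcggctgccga
RPL41 (chr12:56116593-56116652, plus strand): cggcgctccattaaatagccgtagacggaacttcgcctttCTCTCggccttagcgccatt
RPS14 (chr5:150449720-150449779, minus strand): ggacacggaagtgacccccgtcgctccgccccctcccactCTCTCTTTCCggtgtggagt
FAU (chr11:65122115-65122174, minus strand): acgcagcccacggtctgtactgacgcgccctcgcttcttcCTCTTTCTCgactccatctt
RPS4X (chrX:72277229-72277288, minus strand): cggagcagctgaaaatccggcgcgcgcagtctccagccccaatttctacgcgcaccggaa
EEF1A1 (chr6:73521013-73521072, minus strand): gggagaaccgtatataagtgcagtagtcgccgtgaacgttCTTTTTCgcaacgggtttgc
SNHG5 (chr6:85678714-85678773, minus strand): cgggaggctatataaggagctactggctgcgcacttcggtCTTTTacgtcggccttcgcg
Such a start was found in 5.14% of 27305 promoters, in 7.29% of the 10258 that belong to tested genes and in 45 of 61 ribosomal protein genes with an entry (73.8%). The 45 had a median log2 fold change of -0.88 and the 16 without it -0.91. This split depends on the exact annotated base. Within 5 bases of the annotated start, such a run was found in 52 of the 61 (85.2%) and in 28.9% of tested genes. Some of the 16 therefore have one beside the annotated start. Among genes that are not ribosomal proteins, 33.1% of 703 with such a start were lower and 48.2% higher (median log2 fold change 0.12). Of 9494 without one, 23.9% were lower and 53.3% higher (median 0.22). FAU, with a run of 9 pyrimidines, fell by 0.24, and RPL41, with a run of 5, fell by 1.81. Both were picked for the size of their falls, and the length of the run was not tested across the 45 genes.

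**Figure D3:**
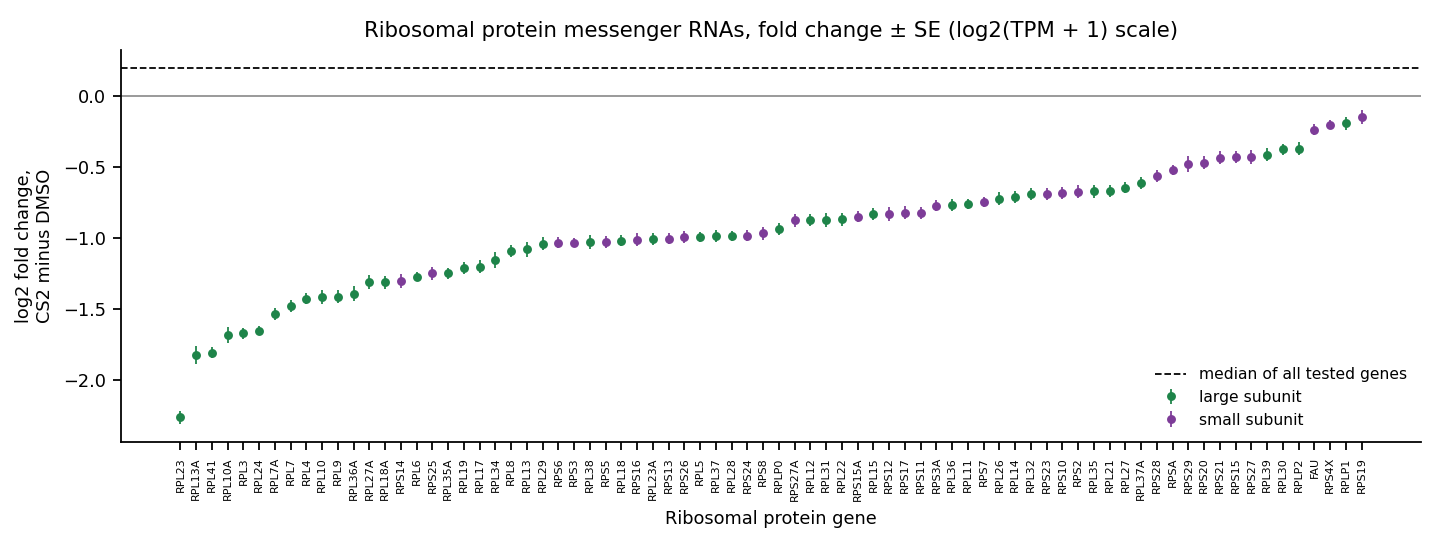
Log2 fold change ± SE of 76 of the 77 tested ribosomal protein genes (vertical axis, CS2 minus DMSO), ordered by size; green is the large and purple the small subunit, and the dashed line is the median of all tested genes (0.20). The plotted values run from -2.26 for RPL23 to -0.15 for RPS19.

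The paralogs that can stand in for ribosomal proteins did not move as 1 group, with 2 of 6 higher and 4 lower. RPL39L was at 47.4, 51.1, 49.0 and 49.3 TPM with DMSO and at 179, 185 and 171 TPM with CS2 (log2 fold change 1.84, SE 0.056, adjusted p = 5.95e-13), and RPS27L, a p53 target, rose from 99.8 ± 1.79 to 150.0 ± 5.0 TPM. RPL22L1 fell from 63.9 ± 1.29 to 15.1 ± 0.831 TPM and RPL26L1 from 54.6 ± 2.38 to 16.1 ± 0.584 TPM. RPL7L1 fell by 0.36 and RPL36AL by 0.12 on the log2 scale; RPL36AL did not pass without CS2 replicate 3 (-0.08, adjusted p = 0.071).

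Elongation factors and other 5′ TOP genes fell in 17 of 18 cases (relative median -1.23). EEF1A1, which carries aminoacyl-tRNA to the ribosome, was at 3380, 3496, 3563 and 3614 TPM with DMSO and at 920, 922 and 959 TPM with CS2. RACK1, a scaffold on the small subunit, fell from 1870 ± 41.2 to 733 ± 22.1 TPM, and EIF4B from 294 ± 6.26 to 115 ± 4.94 TPM. The 1 riser was VIM, a cytoskeletal filament gene placed on the list for its start, from 53.6 ± 4.35 to 334 ± 7.4 TPM. Initiation factors were less uniform, with 22 of 38 lower and 8 higher (relative median -0.39; 30 and 3 after median-ratio scaling). EIF4A2, a helicase, fell from 297 ± 8.37 to 135 ± 7.09 TPM, while EIF5A2, the minor isoform of a translation factor, rose from 13.4 ± 0.561 to 33.1 ± 2.06 TPM.

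Ribosome assembly and nucleolar genes fell in 38 of 41 cases (relative median -1.04). NOP16 went from between 89.4 and 103 TPM to between 26.0 and 29.5 TPM, and POLR1D, a subunit of RNA polymerases I and III, from 62.7 ± 2.12 to 19.3 ± 1.5 TPM. UBTF, the factor that binds ribosomal DNA, was the 1 gene higher (94.4 ± 1.94 to 110.2 ± 2.02 TPM), and it did not pass after median-ratio scaling (0.02, adjusted p = 0.812) or quantile normalization (-0.02, adjusted p = 0.774). Host genes of small nucleolar RNAs fell in 14 of 15 cases (relative median -1.39). SNHG5 was at 616, 605, 680 and 693 TPM with DMSO and at 61.1, 58.6 and 67.7 TPM with CS2. GAS5 was at 322, 339, 355 and 363 TPM with DMSO and at 80.9, 81.9 and 86.6 TPM with CS2. SNORD76 and SNORD44, which lie in introns of GAS5, had the largest fitted falls of the whole table: SNORD76 went from 247 ± 16.5 to 12.5 ± 3.57 TPM, and SNORD44 was at 20.5, 49.8, 36.8 and 53.1 TPM with DMSO and listed at 0 in the 3 CS2 libraries. Short RNAs without a tail are poorly seen by poly(A) selection. SNHG1 was higher (189 to 226 TPM), which did not pass after median-ratio scaling (0.05) or quantile normalization (0.10).

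Outside the cytosolic ribosome the picture was mixed. Of 77 mitochondrial ribosomal proteins 38 fell and 24 rose (relative median -0.29; 54 and 14 after median-ratio scaling), with MRPL24 falling from 122 ± 4.77 to 30.4 ± 4.73 TPM and MRPS6 rising from 79.6 ± 1.96 to 184 ± 8.46 TPM. Of 23 cytosolic aminoacyl-tRNA synthetase genes 14 fell and 4 rose (relative median -0.65; 18 and 2 after median-ratio scaling). Valyl-tRNA synthetase, VARS, fell from 109 ± 0.524 to 43.4 ± 5.19 TPM, and alanyl-tRNA synthetase, AARS, rose from 126 ± 7.20 to 237 ± 15.2 TPM. Regulators of mTORC1 and of 5′ TOP messages rose in 12 of 22 cases and fell in 6 (relative median 0.01). These shares were close to those of all tested genes (49.5% and 24.6%). The counts were 10 and 8 after median-ratio scaling and 8 and 8 after quantile normalization. The rises included SESN3, FLCN, RRAGA and RHEB. The falls included the complex members MLST8 (53.8 ± 1.21 to 15.96 ± 1.73 TPM) and RPTOR (18.3 ± 0.837 to 7.32 ± 0.939 TPM) and the 5′ TOP binding protein LARP1 (174 ± 2.73 to 101 ± 0.617 TPM). The other falls were TSC2, RRAGB and AKT1S1.

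The response to CS2 was then set against the response to the FTO hairpin, which has controls of its own. FTO fell in shFTO (log2 fold change -1.86). Of all tested genes 31.9% were higher and 24.5% lower with this hairpin. The difference between both responses passed upwards, in favour of CS2, for 5947 genes (39.8%) and downwards for 3538 (23.7%), with 4514 and 5026 after median-ratio scaling and 4843 and 4612 after quantile normalization. Fork genes, of which 26 rose with CS2, fell with the hairpin in 29 of 32 cases, and the difference was higher for CS2 in 28 and lower in 1. For the licensing list 13 of 18 fell with the hairpin and the difference was higher for CS2 in 15 and lower in 1. E2F2, for instance, had log2 fold changes of 2.29 with CS2 and -0.84 with the hairpin. Of the 77 ribosomal protein genes 9 rose and 22 fell with the hairpin (9 and 14 after median-ratio scaling, 18 and 24 after quantile normalization), and the difference was lower for CS2 in 75. After quantile normalization that difference was lower for CS2 in 37 and higher in 3 of the large subunit, and lower in 22 and higher in 5 of the small subunit. RPL13A had -1.83 with CS2 and 0.12 with the hairpin. Ribosome assembly genes fell under both, in 40 of 41 cases with the hairpin, and the difference was higher for CS2 in 8 and lower in 14 (3 and 21 after either scaling). Differentiation lists differed from each other in this contrast. Monocyte and macrophage markers, of which 17 rose with CS2 (12 after either scaling), rose with the hairpin in 16 of 19 cases and fell in 2. The difference was higher for CS2 in 9 and lower in 7 (7 and 8 after either scaling). Pattern recognition and chemoattractant receptors rose with the hairpin in 17 of 22 cases and fell in 2, and the difference was higher for CS2 in 17 and lower in 1. Fc receptors rose with the hairpin in 6 of 7 cases, and the difference was higher for CS2 in 3 and lower in 2 (3 and 3 after median-ratio scaling). Inflammatory cytokines rose with the hairpin in 8 of 15 cases, and the difference was higher for CS2 in 13 and lower in 1. Late granule genes rose in 3 and fell in 3 of 9 cases with the hairpin, and promyelocyte granule genes rose in 9 and fell in 3 of 15. The difference was higher for CS2 in 5 and lower in 0 of the late genes, and higher in 5 and lower in 10 of the promyelocyte genes. Myeloid transcription factors rose in 10 and fell in 8 of 25 cases with the hairpin, and the difference was higher for CS2 in 21 and lower in 4. The hairpin cells were selected with puromycin and the treated cells were not, so compound and procedure cannot be told apart in this contrast.

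**Figure D4:**
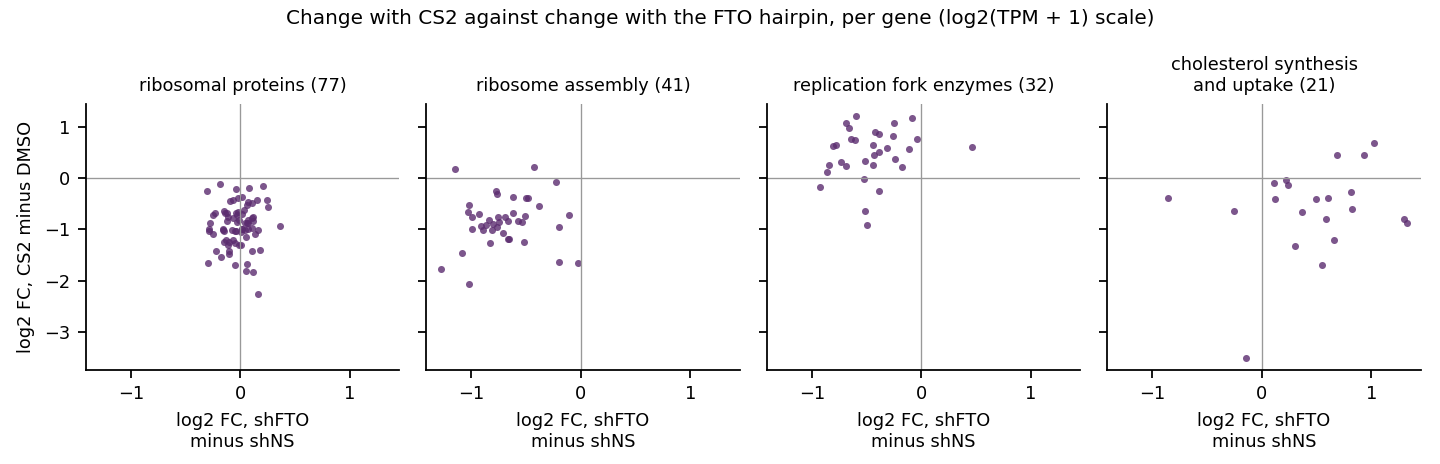
Log2 fold change with CS2 (vertical axis) against log2 fold change with the FTO hairpin (horizontal axis) for the members of 4 lists; each dot is a gene and the number of genes is in brackets. Fork genes lie mostly at the upper left, and ribosomal protein genes form a column near 0 on the horizontal axis that lies wholly below 0 on the vertical axis.

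CS1 was given at 100 nM and shares the DMSO libraries, so its values stand only side by side with those of 500 nM CS2. RPL13A had 1240 TPM with DMSO, 1065 with CS1 and 349 with CS2, and EEF1A1 had 3513, 3653 and 933.5 TPM. E2F2 had 44.2, 88.4 and 221 TPM, and CEBPE had 31.2, 72.8 and 146 TPM in the same order.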

How the data were processed

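The authors deposited TPM (transcript abundance on a common library total), 1 column per library. The genome build was GRCh38 and the quantifier RSEM 1.2.31, per the submitters' processing notes. Aligner and annotation: not given in the sources used here. Whole-column sums were those of TPM. The 16 columns were matched to samples by name. Without counts, depth is unknown and no counting error is given. TPM are relative to each library's total, so a fall of abundant genes raises the rest.

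From these values log2(TPM + 1) was fitted with limma 3.58.1 in R 4.3.3 (1 mean per group, all 16 libraries, eBayes with a mean-variance trend), on genes reaching 1 TPM in 3 or more libraries, two-sided, with Benjamini-Hochberg adjustment and a threshold of 0.05. The contrasts were CS2 minus DMSO and that difference minus shFTO minus shNS. The share of ribosomal protein TPM had an exact permutation test. On simulated data with 14951 genes the test recovered 39.5%, 82.5%, 94% and 97.5% of 200 genes changed 1.2, 1.5, 2 and 4-fold for CS2 against DMSO. Of its calls 3.66%, 7.3%, 6.47% and 2.01% were false. Only these 200 genes changed there, without a fixed TPM total, whereas most tested genes passed in the data. The rates therefore do not describe the calls made here. The rest was done in Python 3.11.15 (matplotlib 3.10.9, scipy 1.17.1, pandas 2.3.3, numpy 2.4.6). Promoters came from RefSeq.

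Gene lists and their members were chosen with earlier results of these data known. Named genes are FTO, the 15 largest rises and 15 largest falls that passed, had a group mean of at least 5 TPM and no overlap of libraries, and from each list up to 6 rises, 6 falls, the 3 highest in DMSO and 3 that did not pass; exceptions are stated, and a few such genes are not reported here. Alternatives were another pseudocount, other filters on low values, median-ratio scaling, quantile normalization, leaving out ribosomal RNA and mitochondrial-like entries, fitting only the groups compared, no mean-variance trend, a replicate block, and leaving out each library.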

Additional observations from a re-analysis of the deposited data

Results flagged for a closer look

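Among the 4 DMSO libraries, 6 of 210 gene levels examined had 1 library standing apart from the other 3, by a gap above the 95% critical value of Dixon's test for 4 samples; chance gives about 1 in 20. DMSO replicate 1 was the library in 4 of them. C5AR1 stood at 1.28 TPM there, against 1.71 to 1.79 TPM in the others. ZFP36L2 stood at 368.3 TPM (343 to 347 TPM in the others), POLD2 at 185.0 TPM (196 to 197 TPM) and VBP1 at 176.1 TPM (160.5 to 162 TPM). EGR1 stood at 7.88 TPM in DMSO replicate 3 (2.76 to 3.11 TPM), and TYMS at 494.1 TPM in DMSO replicate 4 (476 to 479 TPM). All 6 genes passed between CS2 and DMSO with these libraries and without any 1 of the 7 libraries.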

How the results depend on the processing

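Counts of genes higher (5395 to 8238) and lower (3169 to 5346) kept within 1.5 times of 7405 and 3674 under all alternatives run; genes at least 2-fold higher fell from 1531 to 994 after quantile normalization. Leaving out 1 library gave 6930 to 7595 higher and 3483 to 3599 lower genes, 1495 to 1640 and 678 to 722 at 2-fold, and 5698 to 6169 and 3424 to 3525 for CS2 minus hairpin. The ribosomal protein share then differed by -7.28 to -6.75 percentage points, with p of 0.10 (3 against 3) or 0.0667 (4 against 2), the smallest those designs allow. Of the named genes, these changed sign. After median-ratio scaling: FTO (-0.092), CTSG (-0.18), AZU1 (-0.17), MEIS1 (-0.10), MCM6 (-0.13). After quantile normalization: FTO (-0.11), AZU1 (-0.11), MEIS1 (-0.13), UBTF (-0.019), RPLP1 (0.0004), RPS19 (0.43), RPS4X (0.20). With 1 library left out, CTSG ran from -0.0058 to 0.0577, AZU1 from -0.0086 to 0.0809 and HOXA9 from -0.1232 to 0.0011, with signs changing without DMSO replicate 1 (CTSG) and CS2 replicate 3 (all 3). The cause was not tested. Same-numbered CS2 and DMSO libraries shared only a number (correlation of deviations 0.024, 0.079 and 0.059); a replicate block gave 7276 higher and 3660 lower genes. Scaling sets the split of calls, and TPM cannot show whether total RNA per cell changed.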

Other observations

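Genes of cholesterol synthesis and uptake fell in 16 of 21 cases with CS2 and rose in 3 (relative median -0.61), whereas 16 rose and 2 fell with the FTO hairpin, and the difference between responses was lower for CS2 in 18 and higher in 1. Of 7 cholesterol export and LXR target genes 5 rose and 2 fell with CS2 (3 and 2 after median-ratio scaling, 2 and 2 after quantile normalization). The 2 that fell were SCD and SREBF1. The desaturase SCD was at 994, 1022, 972 and 993 TPM with DMSO and at 253, 253 and 289 TPM with CS2, and SREBF1, a factor for lipid synthesis, fell from 54.5 ± 3.47 to 21.8 ± 4.41 TPM. APOE, a lipid carrier, rose from 1.34 ± 0.0987 to 4.70 ± 0.766 TPM. Of 29 lysosome genes 25 rose and 3 fell (relative median 0.50). The counts were 19 and 4 after median-ratio scaling and 19 and 3 after quantile normalization. The sialidase NEU1 rose from 107 ± 3.18 to 311 ± 21.8 TPM and the protease CTSH from 87.1 ± 3.13 to 189 ± 6.30 TPM, while the cholesterol transporter NPC1 fell from 144 ± 8.78 to 82.6 ± 8.67 TPM.

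SLC19A1, the reduced folate carrier, was among the 15 largest falls, at 35.2, 32.8, 35.6 and 35.7 TPM with DMSO and at 2.91, 2.85 and 3.45 TPM with CS2. Every CS2 library lay below every DMSO library. The m6A eraser ALKBH5 rose from 83.6 ± 2.05 to 110 ± 5.12 TPM, and the writer subunit RBM15 from 33.7 ± 3.02 to 54.0 ± 6.30 TPM. Of 19 tested m6A genes 9 rose and 3 fell (relative median -0.09), where 49.5% of all tested genes rose and 24.6% fell. The counts were 6 and 10 after median-ratio scaling and 6 and 9 after quantile normalization.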
